A study of Mus musculus with 8 samples.

Results

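The genes described here are 8 genes of Schwann cells and of the myelin they make, read from the bulk RNA of mouse quadriceps muscle, which contains the nerve branches that run to the fibers. They were found by gene name in the deposited table, and all 8 were present among its 47643 genes: *Mbp*, *Pmp22*, *Prx*, *Mag*, *Sox10*, *Egr2*, *S100b* and *Cnp*. The muscles came from 4 *Nup210*-/- mice and 4 *Nup210*+/+ mice of the C57BL/6 strain, with 1 library per mouse. The knockout is constitutive: HprtCre removed the floxed exon 2 of *Nup210*, a nuclear pore gene, and was not limited to Schwann cells or fibers, and the sources used here do not give the age or sex of the sequenced mice. Of the 8 genes, 5 reached a mean of 0.5 TPM, a transcript abundance per length in which each library sums to 1000000, and entered the test between genotypes that was run across all genes. *Egr2*, *Mag* and *Sox10* were below that level and are given by their values.

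Schwann cells wrap the motor and sensory axons of the muscle in myelin, a stack of compacted membrane held together by a few abundant proteins. The transcription factor Sox10 keeps the cells in this lineage, and Egr2 (Krox20) switches on the myelin genes. Pmp22 and Mbp belong to the compacted sheath. Prx links the outside of the sheath to its surroundings, Mag sits next to the axon, Cnp lies in the uncompacted cytoplasm, and S100b is a calcium-binding protein widely used to mark Schwann cells. Several of these genes are also used elsewhere: *Pmp22* in fibroblasts, *S100b* in fat cells, *Egr2* as an immediate early gene, and *Cnp* at low levels in many cells.

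Promoter sequences were found for 6 of the 8 genes in the RefSeq table for GRCm38.p6 (all but *Mbp* and *Sox10*), as 15 windows of 250 bases before an annotated start. Each was searched on both strands for ACAAAG, a core bound by Sox factors, and for GCGTGGGCG and GCGGGGGCG, bound by Egr factors. ACAAAG was found before *Mag* and *Cnp*, and 16.5% of all 32851 windows hold it. Neither Egr sequence was found, and they occur in 0.54% and 2.57% of all windows. The *Mag* and *Cnp* windows are shown because they hold the match, which is in capitals (read as CTTTGT where it lies on the opposite strand). The *Mag* window shown overlaps another that holds the same match, and a further *Mag* window holds none. The first 2 *Pmp22* windows are shown because this gene, the highest of the 8, has several starts that the deposited value per gene adds together. The first of them has 48.8% G and C with 3 CpG pairs, and the next 61.2% with 14 CpG pairs, against a median of 52.4% and 6 over all windows. All are written 5′ to 3′ on the strand of the gene.
*Mag* (minus strand, chr7:30914864-30915113): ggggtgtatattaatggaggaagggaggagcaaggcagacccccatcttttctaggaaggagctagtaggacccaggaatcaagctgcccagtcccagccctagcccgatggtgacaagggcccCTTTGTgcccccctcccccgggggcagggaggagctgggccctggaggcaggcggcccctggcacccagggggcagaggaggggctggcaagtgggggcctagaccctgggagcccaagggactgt
*Cnp* (plus strand, chr11:100574689-100574938): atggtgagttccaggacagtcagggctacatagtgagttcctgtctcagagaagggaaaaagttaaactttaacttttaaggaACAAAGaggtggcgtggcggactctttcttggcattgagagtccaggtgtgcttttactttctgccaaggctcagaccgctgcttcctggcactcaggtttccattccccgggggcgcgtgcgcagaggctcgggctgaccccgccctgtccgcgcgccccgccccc
*Pmp22*, first start (plus strand, chr11:63128732-63128981): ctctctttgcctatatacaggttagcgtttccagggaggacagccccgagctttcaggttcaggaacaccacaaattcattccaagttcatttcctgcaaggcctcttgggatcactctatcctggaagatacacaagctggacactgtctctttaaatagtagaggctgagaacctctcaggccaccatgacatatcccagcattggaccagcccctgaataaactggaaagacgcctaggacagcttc
*Pmp22*, next start (plus strand, chr11:63131207-63131456): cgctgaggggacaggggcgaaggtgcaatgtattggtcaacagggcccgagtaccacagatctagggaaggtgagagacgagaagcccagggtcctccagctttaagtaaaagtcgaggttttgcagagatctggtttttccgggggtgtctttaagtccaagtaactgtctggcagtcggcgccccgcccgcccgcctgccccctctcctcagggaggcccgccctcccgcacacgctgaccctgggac

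Genes characteristic of oligodendrocytes, the myelinating cells of the brain, were at or near 0. Of 8 such genes, 4 were listed at 0 in every library (*Mobp*, *Opalin*, *Olig2* and *Klk6*), and the highest value of any was 0.18 TPM. Muscle fiber genes dominated, with *Myh4*, a fast myosin, at 7218 to 9582 TPM. *Nup210* itself was 9.54, 10.79, 11.93 and 8.81 TPM in the libraries labelled *Nup210*-/- and 5.71, 10.11, 9.19 and 6.71 TPM in those labelled *Nup210*+/+. It was not lower in the knockout, but a value per gene does not show whether exon 2 is present, so it does not check the deletion and the directions below rest on the labels. The number of reads is unknown, so precision rests on the spread between mice. *Nup210*+/+ replicate 2 stood apart: the sum of 6 granulocyte precursor genes was 382 TPM there and 0.31 to 2.12 elsewhere.

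Because TPM are per transcript length, the levels of the 8 genes can be set side by side. *Pmp22* was highest in all 8 libraries, with 58.5 to 68.7% of the summed TPM of the 8 genes, and its mean was 4.34 times that of *Mbp*. *Mbp* exceeded *Cnp* in 7 of 8 libraries (not in *Nup210*-/- replicate 4), but their ranges overlapped. *Cnp* was above *S100b* in all 8 without overlap of the ranges. *S100b* was above *Prx* in every library, although the range of *S100b* starts at 1.22 TPM and that of *Prx* reaches 1.66 TPM. *Egr2*, *Mag* and *Sox10* lay below these, and their order changed from library to library. The plot of levels by library shows these steps.

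**Figure D1:**
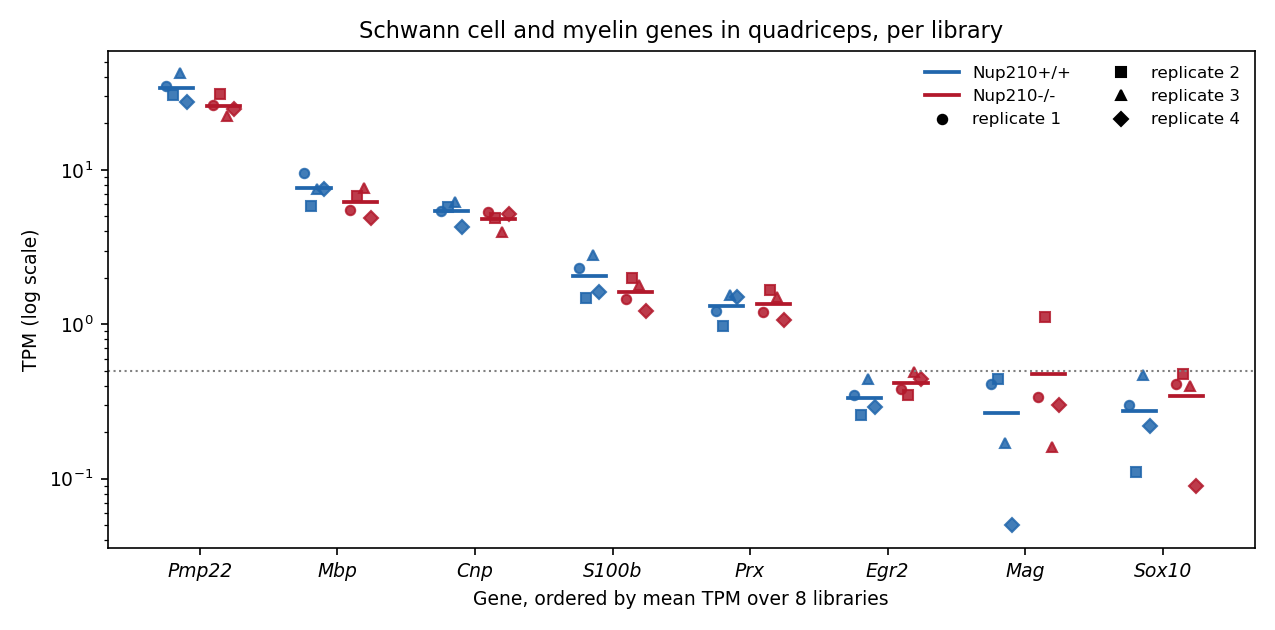
TPM of the 8 genes in each library on a log axis, with *Nup210*+/+ in blue on the left and *Nup210*-/- in red on the right of each gene; symbols mark replicates, bars the genotype means, and the dotted line the 0.5 TPM needed for testing. The genotypes overlap for every gene, and *Pmp22* lies above the other genes in all 8 libraries.

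By limma with Benjamini-Hochberg adjustment at 0.05, 0 of the 5 tested genes differed between genotypes, beside 0.112% of 14229 genes (0.0633% lower and 0.0492% higher in *Nup210*-/-). At an unadjusted p of 0.05 it was also 0 of 5, beside 14.2% of all genes tested (7.18% lower in *Nup210*-/-), and the lowest exact permutation p of the 8 genes was 0.0571. On TPM brought to a common scale, the genotypes overlapped for all 8 genes. Beside this, they did not overlap for 9.38% of the genes tested, 4.60% being lower in *Nup210*-/-. For 8 genes, having none without overlap is near that share, which leaves out untested genes such as *Egr2*, *Mag* and *Sox10*. Of the 5, 4 had a lower estimate in *Nup210*-/- and 1 a higher one, while 51.3% of all genes tested had a lower one, with a median log2 fold change of -0.15, beside -0.01 over all genes tested. The 3 untested genes all had higher means in *Nup210*-/-, and the median log2 difference over all 8 genes was 0.019. In bulk RNA, fewer Schwann cells and less RNA per cell cannot be told apart.

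The regulators were at the bottom of the range. *Sox10* (chromosome 15, 79154908 to 79165240, minus strand) was 0.41, 0.48, 0.40 and 0.09 TPM in *Nup210*-/- replicates 1 to 4 and 0.30, 0.11, 0.47 and 0.22 TPM in *Nup210*+/+ replicates 1 to 4. One library of each genotype, *Nup210*-/- replicate 4 and *Nup210*+/+ replicate 2, was near 0.1 TPM, and the genotypes overlapped (two-sided exact permutation test on log2 values, p = 0.457). *Egr2* (chromosome 10, 67535475 to 67542188, plus strand) was 0.38, 0.35, 0.49 and 0.44 TPM in *Nup210*-/- and 0.35, 0.26, 0.44 and 0.29 TPM in *Nup210*+/+. Its values tended to the upper side in *Nup210*-/-, with a difference of 0.11 in log2(scaled TPM + 1) that did not pass (exact permutation test, p = 0.0571). With TPM as deposited the difference of *Egr2* was 0.085 (exact permutation test, p = 0.2). The smallest p this design of 4 against 4 allows is 0.0286.

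Of the genes for proteins of compact myelin, *Pmp22* (chromosome 11, 63128982 to 63159547, plus strand, 5 annotated transcripts) was 26.18, 30.83, 22.39 and 24.88 TPM in *Nup210*-/- replicates 1 to 4 and 34.77, 30.51, 42.14 and 27.59 TPM in *Nup210*+/+. The *Nup210*-/- libraries lay toward the lower side, and replicate 2 alone reached into the range of the controls. The log2 fold change was -0.26 (95% interval -0.52 to 0.0017, limma adjusted p = 0.354 with Benjamini-Hochberg adjustment), the largest of the 5 and the nearest to a call. *Mbp* (chromosome 18, plus strand, 16 annotated transcripts) was 5.52, 6.78, 7.58 and 4.88 TPM in *Nup210*-/- and 9.50, 5.85, 7.53 and 7.46 TPM in *Nup210*+/+. Its highest library was a control and its lowest a knockout, with overlap between them. The log2 fold change was -0.17 (95% interval -0.52 to 0.17, limma adjusted p = 0.625 with Benjamini-Hochberg adjustment), an interval that holds both lower and higher levels. With 1 library left out it ran from -0.28 without *Nup210*+/+ replicate 2 to -0.095 without *Nup210*-/- replicate 4 and -0.069 without *Nup210*+/+ replicate 1, in each case without a call.

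The genes for proteins outside the compact sheath had estimates in no common direction, and no difference passed. *Prx* (chromosome 7, 27499324 to 27520214, plus strand) was 1.21, 1.66, 1.51 and 1.06 TPM in *Nup210*-/- and 1.22, 0.97, 1.54 and 1.51 TPM in *Nup210*+/+. Both genotypes filled nearly the same range, with a log2 fold change of 0.08 (95% interval -0.23 to 0.39), which ran from 0.0093 without *Nup210*+/+ replicate 2 to 0.15 without *Nup210*+/+ replicate 4. *Mag* (chromosome 7, 30899176 to 30914873, minus strand) was 0.34, 1.11, 0.16 and 0.30 TPM in *Nup210*-/- and 0.41, 0.44, 0.17 and 0.05 TPM in *Nup210*+/+. *Nup210*-/- replicate 2 was the highest, and without it the log2 difference fell from 0.22 to 0.034 (exact permutation test with all libraries, p = 0.457). *Cnp* (chromosome 11, 100574904 to 100591729, plus strand) was 5.36, 4.87, 3.97 and 5.16 TPM in *Nup210*-/- and 5.38, 5.72, 6.18 and 4.27 TPM in *Nup210*+/+. Its log2 fold change was -0.045 (95% interval -0.31 to 0.22) and took the other sign, 0.045, without *Nup210*-/- replicate 3, the lowest library. Exons of *Prx* and *Cnp* overlap those of *Gm15541* and *Dnajc7* on the opposite strand, and use of strand in the estimates is not given in the sources used here.

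*S100b* (chromosome 10, 76253853 to 76261159, plus strand, 1 annotated transcript) was 1.46, 2, 1.8 and 1.22 TPM in *Nup210*-/- and 2.31, 1.47, 2.83 and 1.61 TPM in *Nup210*+/+. Its highest libraries were *Nup210*+/+ replicates 3 and 1, and the other controls lay within the range of the knockouts. The log2 fold change was -0.15 (95% interval -0.49 to 0.20, limma adjusted p = 0.690 with Benjamini-Hochberg adjustment). It was -0.24 without *Nup210*+/+ replicate 2 and -0.059 without *Nup210*+/+ replicate 3, the highest library.

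Other genes of Schwann cells and nerve were read from 4 lists of 49 genes, of which 48 were in the table and 23 were tested. In limma 0 of 23 were called after adjustment at 0.05, and 3 (*Zeb2*, *Osr2* and *Wif1*) had an unadjusted p below 0.05, all lower in *Nup210*-/-. This share is no higher than the 14.2% of all genes tested with such a p in either direction. It is higher than the 7.18% of all genes tested that were lower in *Nup210*-/- at that p. Among peripheral myelin proteins and lipid enzymes, 1 of 5 tested genes had a lower and 4 a higher estimate, with a median log2 fold change of 0.14. *Mal*, a membrane-sorting protein of the sheath, had the highest log2 fold change of that list, 0.30. *Gjb1*, the gap junction protein of Schwann cells, did not exceed 0.31 TPM and was listed at 0 in 4 libraries.

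Among regulators and signalling genes, 7 of 8 tested genes had a lower estimate, and the range ran from -0.35 for *Zeb2* to 0.12 for *Erbb3*, the neuregulin receptor of Schwann cells. *Zeb2*, a repressor needed for myelination that macrophages also express, was 6.56 to 8.16 TPM in *Nup210*-/- and 7.65 to 11.51 TPM in *Nup210*+/+ (limma unadjusted p = 0.0110, adjusted p = 0.211). Leukocyte genes, 9 of 9 tested, also had lower estimates, 8 of them at an unadjusted p of 0.05 in limma, with a summed TPM of 232 to 255 in *Nup210*-/- and 263 to 516 in *Nup210*+/+, and their part in *Zeb2* was not tested. Non-myelinating and repair Schwann cell genes were divided, 2 lower and 2 higher, between *Scn7a* (-0.17), a sodium channel, and *Ncam1* (0.33), an adhesion molecule also made by muscle. *Gfap* did not pass the level filter.

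The nerve sheath and endoneurial fibroblast list held the other 2 of the 3 genes. *Osr2*, a transcription factor of connective tissue, was 0.92, 1.12, 1.35 and 0.98 TPM in *Nup210*-/- and 2.05, 2.35, 3.04 and 1.61 TPM in *Nup210*+/+, without overlap. It was the only 1 of the 23 tested genes of the 4 lists without overlap on scaled TPM. That share is no higher than the 9.38% of all genes tested, or the 4.60% that were lower in *Nup210*-/-. The log2 fold change was -0.57 (95% interval -0.87 to -0.27, limma unadjusted p = 0.00202, adjusted p = 0.132). *Wif1*, a secreted Wnt inhibitor, was 3.15, 4.77, 2.32 and 2.20 TPM in *Nup210*-/- and 5.23, 4.85, 8.81 and 5.29 TPM in *Nup210*+/+. The genotypes were apart on TPM and overlapped after scaling, with a log2 fold change of -0.71 (95% interval -1.18 to -0.24, adjusted p = 0.195 from limma). Perineurial *Itgb4*, an integrin subunit, had the highest estimate of this list, 0.25. Genes of fibroblasts in general also had lower estimates, 6 of 6 tested, 4 of them at an unadjusted p of 0.05, with a summed TPM of 657 to 775 in *Nup210*-/- and 790 to 1321 in *Nup210*+/+. The part of general fibroblast content in the genotype differences of *Osr2*, *Wif1* and *Pmp22* was not tested. The relation of *Pmp22* to these fibroblast genes across mice is given below.

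**Figure D2:**
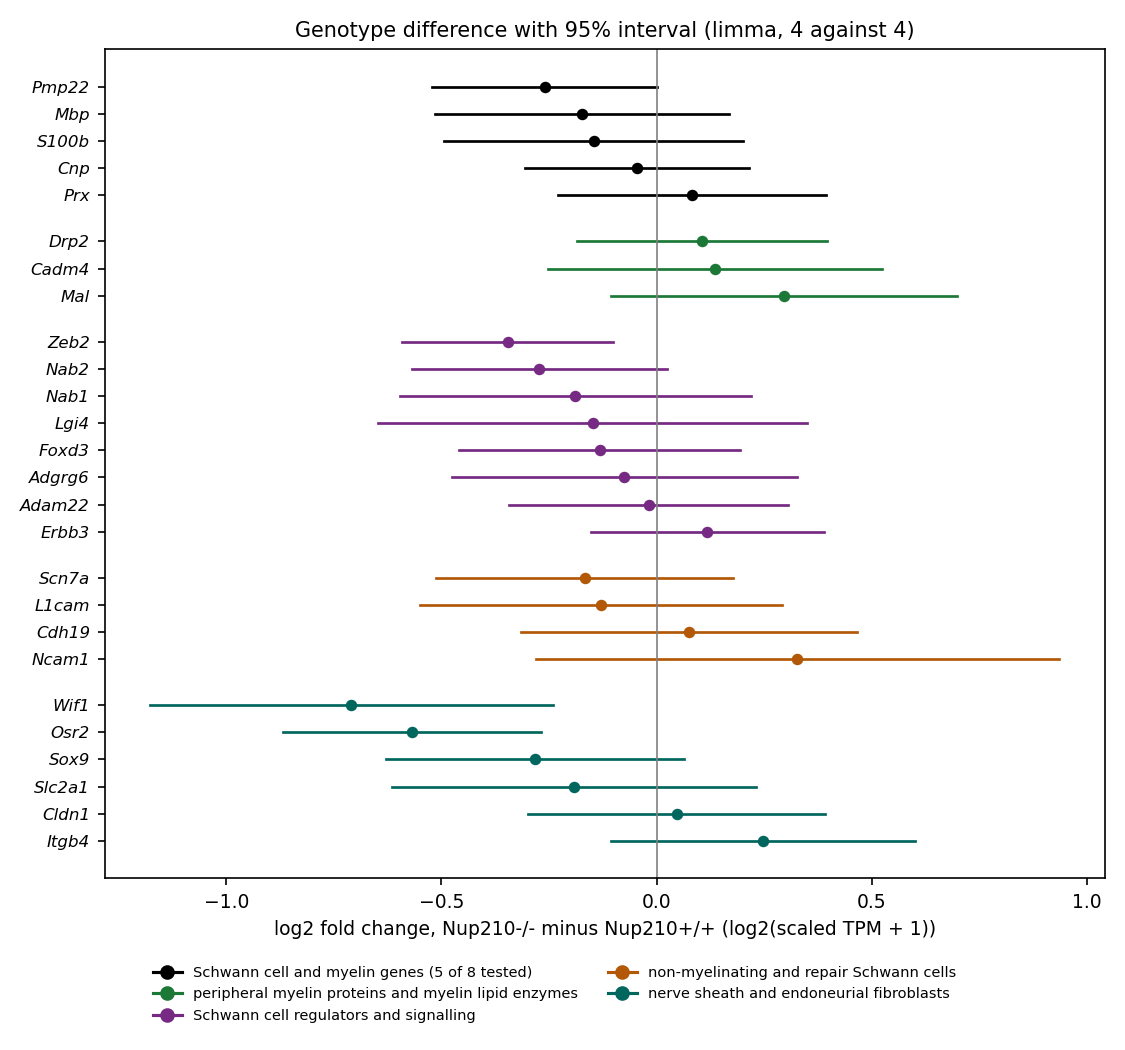
Log2 fold changes between genotypes on the log2(scaled TPM + 1) scale (points) with 95% intervals from limma (lines), for the 5 tested Schwann cell and myelin genes and 21 of the 23 tested genes of 4 wider lists, colored by list. All 5 intervals of the first group include 0, and *Zeb2*, *Wif1* and *Osr2* are the drawn genes whose intervals do not.

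Across mice, 2 relations of the 8 genes to genes of other cells had an adjusted p below 0.05 for r by exact permutation. In 16 relations chosen after the values had been seen, the 8 genes were compared with the mean level of 6 fibroblast genes and of 8 adipocyte genes. The adjustment over the 16 does not cover that choice. *Pmp22* followed the fibroblast genes with r = 0.92 (rho 0.90; exact permutation p = 0.00144 and 0.00456, adjusted over the 16 relations 0.0185 and 0.0730), 0.81 without the 2 libraries farthest from the median (replicate 3 of each genotype) and 0.92 with the genotype means removed. *S100b* followed the adipocyte genes with r = 0.87 (rho 0.79; exact permutation p = 0.00231 and 0.0279, adjusted 0.0185 and 0.196), 0.79 without *Nup210*-/- replicate 2 and *Nup210*+/+ replicate 3, and 0.87 with the genotype means removed. Both rank correlations missed the adjusted threshold of 0.05. For *Mbp*, the other gene of compact myelin, r was 0.34 with fibroblast and 0.21 with adipocyte genes, but 0.85 and 0.57 without the same pairs of libraries, so its lower values rest on them. With the genotype means removed, r of *Mbp* was 0.043 with fibroblast and 0.14 with adipocyte genes. Other pairs were also high before adjustment. For *Pmp22* with adipocyte genes r was 0.72, for *S100b* with fibroblast genes 0.70 and for *Sox10* with adipocyte genes 0.63. Without the same pairs of libraries these were 0.31, 0.66 and 0.62, so the first rests in part on them. For *Sox10* with adipocyte genes rho was 0.76 (exact permutation p = 0.0368, adjusted 0.196). Whether the genes differ in these relations was not tested. The adipocyte genes had a summed TPM of 551 to 866 in *Nup210*-/- and 609 to 1446 in *Nup210*+/+, and none of the 8 tested passed an unadjusted p of 0.05 in limma. *Nup210*+/+ replicate 3 was highest in both lists and also in *Pmp22* and *S100b*.

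**Figure D3:**
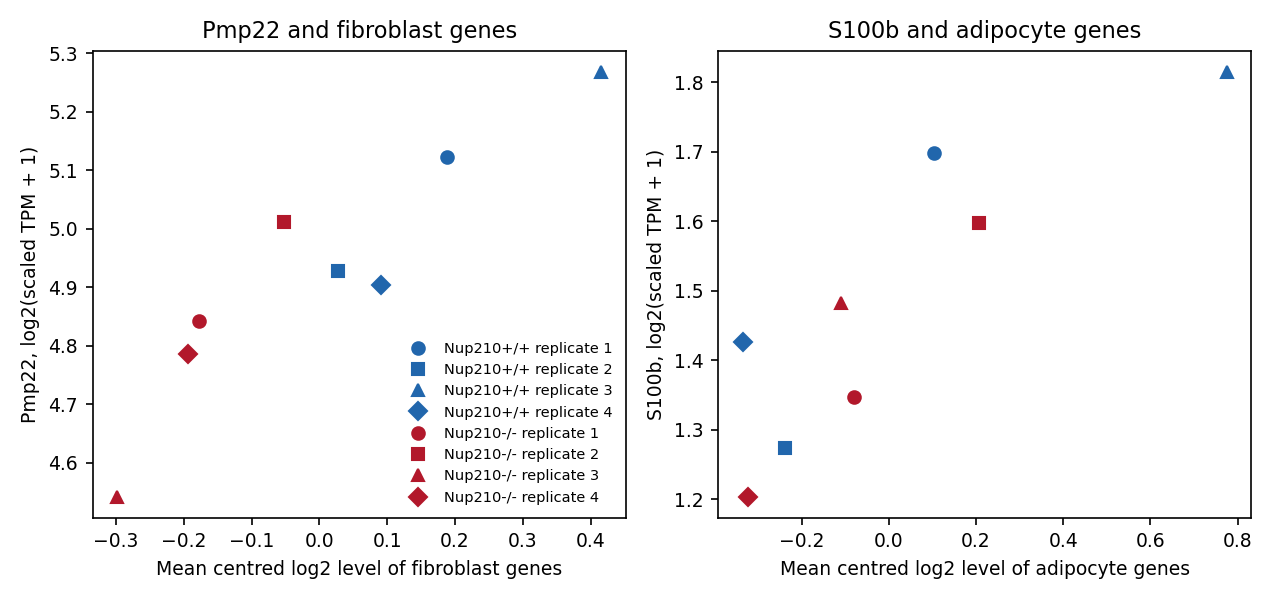
Left, *Pmp22* in log2(scaled TPM + 1) against the mean centred log2 level of fibroblast genes; right, *S100b* against that of adipocyte genes; 1 point per library (blue *Nup210*+/+, red *Nup210*-/-, symbols for replicates). *Nup210*+/+ replicate 3 is at the upper right of both panels, and r over the 8 libraries is 0.92 and 0.87.

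Among the 8 genes themselves, the highest pairwise r over the 8 libraries was 0.70, between *Sox10* and *Prx*, and the lowest was -0.63, between *Cnp* and *Prx*. The mean centred log2 level of the 8 genes ran from -0.12 in *Nup210*-/- replicate 4 to 0.15 in *Nup210*-/- replicate 2, so both ends lay within 1 genotype. That profile includes the untested *Mag*, which was 1.11 TPM in *Nup210*-/- replicate 2 and at most 0.44 TPM elsewhere. A profile without *Mag* was not computed. Outside the lists, the 5 genes most like this mean profile were *Mxd4* (r = 0.96), *Dpep2* (0.96), *Loxl4* (0.95), *Gm9294* (0.94) and *Tctn1* (0.94). They were the closest of the 14229 genes tested, less those in the lists. Picked from so many genes over 8 libraries, their r is high by selection and was not tested. None differed between genotypes at an unadjusted p of 0.05 in limma. As they were chosen to follow a profile with both ends in 1 genotype, this is no separate result. *Mxd4*, a transcription factor of the Myc network, was at 14.96 to 20.48 TPM in *Nup210*-/- and 16.00 to 21.33 TPM in *Nup210*+/+.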

How the data were processed

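Quadriceps RNA of 8 mice was selected for polyadenylated RNA and sequenced single-end from directional libraries. Per the submitters' processing notes and the methods, the authors trimmed reads with cutadapt 2.3, aligned them to mm10 with STAR 2.7.0d and estimated expression with RSEM 1.3.1 on Ensembl 84. The authors deposited TPM per gene and library, summing to 1000000, with replicates not pooled. Read numbers cannot be recovered from TPM, so the count test of the study could not be repeated and no counting interval is given.

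TPM were divided by the median of ratios over 15225 genes above 0 in all libraries (factors 0.936 to 1.12), and log2(scaled TPM + 1) was taken, which understates changes of low genes. A mean TPM of 0.5 or more was required, leaving 14229 genes for limma 3.58.1 under R 4.3.3, with eBayes trend, no covariate beside genotype, and p-values adjusted by Benjamini-Hochberg. The fit was checked on simulated data. Single genes were compared by exact permutation of the genotype labels (70 labelings, two-sided). Correlations used exact permutation of pairings in Python 3.11.15. Replicates are separate mice. The 8 genes and the lists were chosen with earlier results of these data known. Genes were named by rule: the 8 genes, *Gjb1*, the extremes of each list, genes of the nerve lists without overlap, and the 5 nearest profiles. Others named were chosen after their values were seen. A few genes that count in their list, and the relations planned with them, are not reported here. *Itgam*, in 2 rows, was taken from the row whose identifier carries that symbol in the reference. Coordinates and overlaps are from GENCODE M21 (GRCm38, the build of mm10), promoters from RefSeq.

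Alternatives were pseudocounts of 0.1 and 0.5, any TPM above 0, a mean TPM of at least 1, TPM as deposited, upper-quartile scaling, eBayes without trend or robust, library weights, the replicate block and each library left out.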

Additional observations from a re-analysis of the deposited data

Results flagged for a closer look

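Among 62 groups of 4 libraries for 31 named genes, 5 held a library whose gap to the nearest other library was larger, as a share of the range, than chance gives in about 1 of 20 groups. None of the 5 was in the 8 Schwann cell and myelin genes. For *Wif1* it was *Nup210*+/+ replicate 3, with 8.81 TPM where the remaining controls had 4.85 to 5.29 TPM (gap 0.889 of the range). *Ctsg* (gap 0.997) and *Cebpe* (gap 0.986), genes of granulocyte precursors, were highest in *Nup210*+/+ replicate 2, at 105 and 13.2 TPM against at most 0.48 and 0.18 TPM. *Ttn*, the giant sarcomere protein, was lowest among controls in *Nup210*+/+ replicate 2, at 65.2 TPM against 96.5 to 99.2 TPM (gap 0.922), and highest among knockouts in *Nup210*-/- replicate 2, at 105.9 TPM against 81.1 to 85.1 TPM (gap 0.840).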

How the results depend on the processing

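The number of the 8 genes past an adjusted p of 0.05 was 0 under every alternative. The median log2 difference of the 8 genes, 0.019, lay near 0 throughout, from -0.048 with TPM as deposited to 0.053 without *Nup210*-/- replicate 3, and its sign varied. Among the fold changes of single genes, that of *Cnp* alone changed sign, to 0.045 without *Nup210*-/- replicate 3. The value of *Cnp* ranged down to -0.13 with TPM as deposited, and to -0.10 with another library left out. The log2 fold change of *Pmp22* ranged from -0.35 with TPM as deposited, which shifts the median of all genes to -0.085, to -0.18 without *Nup210*-/- replicate 3. That of *Mbp* ranged from -0.29 with library weights to -0.069 without *Nup210*+/+ replicate 1. The number of all genes called, 16, depends on the setting: it was 84 with library weights, 27 with a mean TPM of at least 1, 1 with any TPM above 0, and 0 with upper-quartile scaling or eBayes without trend, and it ranged from 0 to 10 with a library left out (0 without *Nup210*-/- replicate 1, 3 or 4, 10 without *Nup210*+/+ replicate 4); the cause was not tested, beyond the smaller number of samples. Genes of the wider nerve lists past an unadjusted p of 0.05 were 3, and 3 to 6 with a library left out, the highest without *Nup210*+/+ replicate 4, which added *Mal*, *Nab2* and *Scn7a*. *Egr2*, *Mag* and *Sox10* were recomputed for pseudocounts, scalings and left-out libraries only, being below the level of the limma fit. Depth is unknown, so differences of these 3 genes are limited by counting error that cannot be stated.

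The replicate block took the number of all genes called from 16 to 0 and left none of the 8 genes called. The same numbers occur in both genotypes, but the mice are different animals: deviations of same-numbered libraries correlated by -0.033 to 0.0857, and 2 of 8 libraries correlated best with its own number, so the block was not used as a pairing.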

Other observations

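In the lists of other cells, the genes with the lowest and highest log2 fold change were *Lep* (-0.34) and *Adrb3* (0.075) for adipocytes, *Tyrobp* (-0.76) and *Cd68* (-0.21) for leukocytes, *Col1a1* (-0.55) and *Lum* (-0.18) for fibroblasts, *Tek* (-0.24) and *Kdr* (0.14) for endothelium, *Atf3* (-1.36) and *Egr1* (0.60) for immediate early genes, *Ttn* (0.091) and *Myh4* (0.30) for muscle fibers, and *Ctsg* (-1.83) and *Cebpe* (-0.87) for granulocyte precursors, whose values rest on *Nup210*+/+ replicate 2. By limma, 0 of these genes had an adjusted p below 0.05. Of the tested genes, 6 of 6 muscle fiber genes had higher estimates in *Nup210*-/- (3 at an unadjusted p of 0.05), 7 of 8 adipocyte genes lower ones (0), 3 of 5 endothelial genes lower ones (1), 3 of 7 immediate early genes lower ones (1) and 6 of 6 granulocyte precursor genes lower ones (0). *Egr1* was highest in *Nup210*-/- replicate 4, at 16.13 TPM, where *Egr2* of the same family was 0.44 TPM, inside its range in the other libraries of that genotype. *Nfasc*, named after its values were seen, was 1.14 TPM in *Nup210*-/- replicate 3 and at most 0.13 TPM in the other 7 libraries.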
